A study of Bos taurus with 8 samples.

Results

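The miR-106b-25 cluster consists of 3 microRNAs (miRNAs), miR-106b, miR-93 and miR-25, that lie side by side in the gene MCM7. They were found by their names (bta-miR-106b, bta-miR-93 and bta-miR-25) on an array of bovine miRNAs, where they make up 3 of 763 entries. Their levels were compared in mammary tissue of 8 non-pregnant heifers aged 20 months (the protocol text says 2 years), 4 of the dairy breed Holstein-Friesian and 4 of the beef breed Limousin. All animals were labelled healthy, without clinical mastitis, and were sampled at slaughter; no treatment was given. The comparison asks how the gland's miRNAs differ between a dairy and a beef breed before calving, and the labels call the 4 animals of a breed biological replicates. Limousin was the test breed and Holstein-Friesian the reference in the series design, so each difference is Limousin minus Holstein-Friesian. Whole pieces of gland were used, so fewer cells of a type and less RNA per cell cannot be told apart in any value below.

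MCM7 encodes a subunit of the helicase that opens DNA for replication, and in mammals the cluster is transcribed with it, so that the 3 miRNAs are cut from the intron of a gene that dividing cells use. A miRNA represses messenger RNAs that pair with its seed, the bases 2 to 8 from its 5′ end. miR-106b and miR-93 carry the seed of miR-17, and miR-25 carries the seed of miR-92a. In human cells miR-106b and miR-93 are known for repressing the cell cycle inhibitor CDKN1A, miR-25 for repressing the pro-apoptotic BCL2L11 (BIM), and the cluster together for blunting the response to TGF-beta. The related clusters, named after miR-17 and after miR-106a and miR-363, carry members of the same families at other places in the genome.

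The array read each member with a pair of probes, and these sequences are shown because they define what was measured. Each is written 5′ to 3′, and the capital marks the base by which the longer probe of a pair exceeds the shorter.
miR-106b, 16 bases: atctgcactgtcagca
miR-106b, 17 bases: atctgcactgtcagcaC
miR-93, 15 bases: tacctgcacgaacag
miR-93, 16 bases: tacctgcacgaacagC
miR-25, 17 bases: tcagaccgagacaagtg
miR-25, 18 bases: tcagaccgagacaagtgC
The longer probes lie at chr25:36892062-36892077, chr25:36892266-36892280 and chr25:36892505-36892521 in the build UMD 3.1, as the array annotation gives them. Each of these intervals is 1 base shorter than its probe, and no strand was given with them. The annotated starts lie 204 bases apart between miR-106b and miR-93 and 239 bases apart between miR-93 and miR-25. In the RefSeq gene table of another build, ARS-UCD2.0, all 3 miRNA genes lie within the span of MCM7 on chromosome 25.

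The members resemble their relatives outside the cluster to different degrees, which matters because a probe can bind a near copy. The next lines give the stretch of each miRNA that its array probe pairs with, read 5′ to 3′ as the reverse complement of the probe. For the relatives of miR-106b, capitals mark the longest run shared with the miR-106b stretch.
miR-106b: gugcugacagugcagau
miR-93: gcuguucGUGCAGgua
miR-17-5p: gcuuACAGUGCAGguagu
miR-20a: gugcuuauAGUGCAGguag
miR-20b: gcucACAGUGCAGgua
miR-106a: ugcuuACAGUGCAGgua
For the relatives of miR-25, capitals mark the longest run shared with the miR-25 stretch.
miR-25: gcacuugucucggucuga
miR-92a: ACUUGUCccggccugu
miR-32: GCACaugacuaaguugcau
miR-363: CGGUauccaucugcg
The longest run that a member's probe shared with any other miRNA on the array was 9 of 17 bases for miR-106b, 9 of 16 for miR-93 and 8 of 18 for miR-25. Aligned without gaps, the probe of miR-106b matched that of miR-106a at 14 of 16 bases and those of miR-17-5p and miR-20b at 13 of 15, with 2 mismatches each. It matched that of miR-20a at 14 of 17 bases, with 3 mismatches. The probe of miR-93 matched that of miR-20a at 13 of 16 bases, and the probe of miR-25 matched that of miR-92a at 13 of 16, with 3 mismatches each. Binding of these near copies cannot be separated from the members' own signal here, so the separate values of miR-106b in particular are uncertain.

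Each animal had its own one-colour array, on which 45780 spots carried 1657 probes, and 28.6% to 35.5% of the spots gave signal well above background, none of them saturated. All 8 arrays lay on 1 slide, with each breed in its own position index, so that breed and slide position cannot be told apart. The Limousin arrays were brighter: their 75th percentile of signal over the probes detected on every array was 943 to 1579 intensity units, against 557 to 939 in Holstein-Friesian. Levels below are therefore log2 signals after each array was scaled to this percentile, and the number of arrays limits their precision. All 6 markers of mammary epithelium (such as miR-200c and miR-205) were detected on every array. Summed, they reached a scaled log2 signal of 14.12 to 14.29 in Holstein-Friesian and 14.20 to 14.33 in Limousin. All 5 stromal markers were detected on every array as well, while miR-122, miR-124a and miR-9-5p, which mark liver and brain, were detected on none. Holstein-Friesian replicate 2 was the dimmest array, with the lowest 75th percentile (557) and the lowest share of spots well above background (28.6%). It had the highest scaled signal of its breed for each member, but before scaling it was not the highest for any of them. The differences, ratios and correlations of the members are also given without it.

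All 3 members were detected on all 8 arrays, and all 3 were higher on average in Limousin, but by little. miR-25 was the only member past the threshold, at 1.26-fold (95% confidence interval 1.05 to 1.51). The estimate for miR-106b was the same 1.26-fold, with an interval of 1.03 to 1.54, and its adjusted p missed the threshold. miR-93 lay at 1.11-fold with an interval of 0.896 to 1.38, which includes both no change and a change as large as that of its neighbours. The threshold was an adjusted p under 0.05 in limma, with Benjamini-Hochberg adjustment over the 270 miRNAs that at least 1 breed showed on all 4 of its arrays. Across these 270 miRNAs, 113 passed (41.9%), 37 of them higher in Limousin (13.7%) and 76 lower (28.1%), and the median difference was -0.07 on the log2 scale. The count of 1 in 3 members is to be read against that share.

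miR-25, whose seed is that of miR-92a, had scaled log2 signals of 9.99, 10.27, 10.12 and 9.99 in Holstein-Friesian replicates 1 to 4 and of 10.31, 10.38, 10.41 and 10.60 in Limousin replicates 1 to 4. Every Limousin array lay above every Holstein-Friesian array, but the gap between the lowest of one and the highest of the other was only 0.042. The means were 10.09 ± 0.13 (SD, n = 4) in Holstein-Friesian and 10.42 ± 0.13 (SD, n = 4) in Limousin. The log2 difference of 0.33 (SE 0.12, 95% confidence interval 0.07 to 0.60) had a limma adjusted p of 0.0403. Without Holstein-Friesian replicate 2 the difference was 0.39 (limma adjusted p = 0.0145). Without any 1 of the other 7 arrays the adjusted p lay above 0.05, up to 0.1200, with differences of 0.28 to 0.37. The call of miR-25 also ended when each array was corrected for the GC content and length of its probes, at a difference of 0.22 (limma adjusted p = 0.1153). Under the same correction miR-106b was at 0.31 and miR-93 at 0.24, and neither passed (limma adjusted p = 0.0723 and 0.1971). The probes that represent miR-25, miR-106b and miR-93 are 55.6%, 52.9% and 56.25% GC, and the part of GC content was not tested.

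miR-106b, which carries the miR-17 seed, had scaled log2 signals of 10.21, 10.73, 10.61 and 10.37 in Holstein-Friesian replicates 1 to 4 and of 10.76, 10.87, 10.75 and 10.87 in Limousin replicates 1 to 4. The breeds again did not overlap, with a gap of 0.026 between Holstein-Friesian replicate 2 and the lowest Limousin array. The means were 10.48 ± 0.23 (SD, n = 4) and 10.81 ± 0.065 (SD, n = 4), so the Limousin arrays lay closer together. The log2 difference was 0.33 (SE 0.13, 95% confidence interval 0.04 to 0.62), with a limma p of 0.0300 that became 0.0665 after adjustment. Without Holstein-Friesian replicate 2 the difference was 0.41 and passed the threshold (limma adjusted p = 0.0161). It did not pass without any 1 of the other arrays, and reached its lowest value, 0.24, without Holstein-Friesian replicate 1. In all, 2 of the 3 members did not overlap between breeds, both higher in Limousin, where 36.7% of all tested miRNAs did not overlap and 15.9% did so with Limousin higher.

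miR-93, the other carrier of the miR-17 seed, had scaled log2 signals of 8.69, 9.28, 8.87 and 8.76 in Holstein-Friesian replicates 1 to 4 and of 9.05, 8.97, 9.07 and 9.11 in Limousin replicates 1 to 4. Holstein-Friesian replicate 2 was the highest of all 8 arrays, and the other 3 Holstein-Friesian arrays lay below every Limousin array. The means were 8.90 ± 0.27 (SD, n = 4) and 9.05 ± 0.059 (SD, n = 4), and the log2 difference of 0.15 (SE 0.14, 95% confidence interval -0.16 to 0.46) did not pass (limma adjusted p = 0.4313). Without Holstein-Friesian replicate 2 the Holstein-Friesian mean fell to 8.77, and the difference of 0.28 passed (limma adjusted p = 0.0407). All 3 members passed in that setting, as did 52.6% of all tested miRNAs, and none overlapped between breeds, where 22.2% of all tested miRNAs lay without overlap and higher in Limousin. Replicate 2 was the highest Holstein-Friesian array for all 3 members, so leaving it out had to raise each scaled difference. The lack of overlap likewise followed from the signals listed above and is no separate result. The gap between replicate 2 and the nearest Holstein-Friesian array made up 0.70 of the breed's range for miR-93, less than Dixon's critical value for 4 samples.

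Holstein-Friesian replicate 2, the dimmest array, also stood out in a blood marker. miR-451, the miRNA of red cells, gave a scaled log2 signal of 7.07 there, against 4.85 to 5.53 in the other Holstein-Friesian arrays and 4.96 to 5.65 in Limousin. The other red cell markers, miR-144 and miR-486, were detected on no array, and the 3 summed to 7.22 there, 5.40 to 5.94 and 5.41 to 5.90. The leukocyte markers, of which 4 of 5 were detected on all arrays and miR-142-3p on none, summed to 10.004 to 10.588 in Holstein-Friesian and 10.53 to 10.89 in Limousin. Of these, miR-155 and miR-142-5p were higher in Limousin by 0.95 and 0.56 on the log2 scale (limma adjusted p = 0.0012 and 0.0223), and the other 2 did not pass. The endothelial pair, miR-126-3p and miR-126-5p, summed to 11.42 to 11.78 and 11.63 to 11.97, and neither passed. The stromal markers summed to 13.01 to 13.11 and 13.05 to 13.29. Of these 5, miR-199b and miR-199a-3p were higher in Limousin by 0.59 and 0.47 (limma adjusted p = 0.0089 and 0.0116), and 3 did not pass. All 4 called markers had larger differences than any member of the cluster, but they were picked because they passed. None of the 6 epithelial markers passed. These counts are to be read against the 41.9% of all tested miRNAs that passed and the 13.7% that were higher in Limousin. Corrected for the GC content and length of probes, miR-155 alone of the 4 called markers still passed (0.82, limma adjusted p = 0.0025), where 28.9% of all tested miRNAs passed. None of the 4 skeletal muscle markers was detected on all arrays, and miR-206 was detected on none. The part of these markers in the levels of the cluster was not tested.

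**Figure D1:**
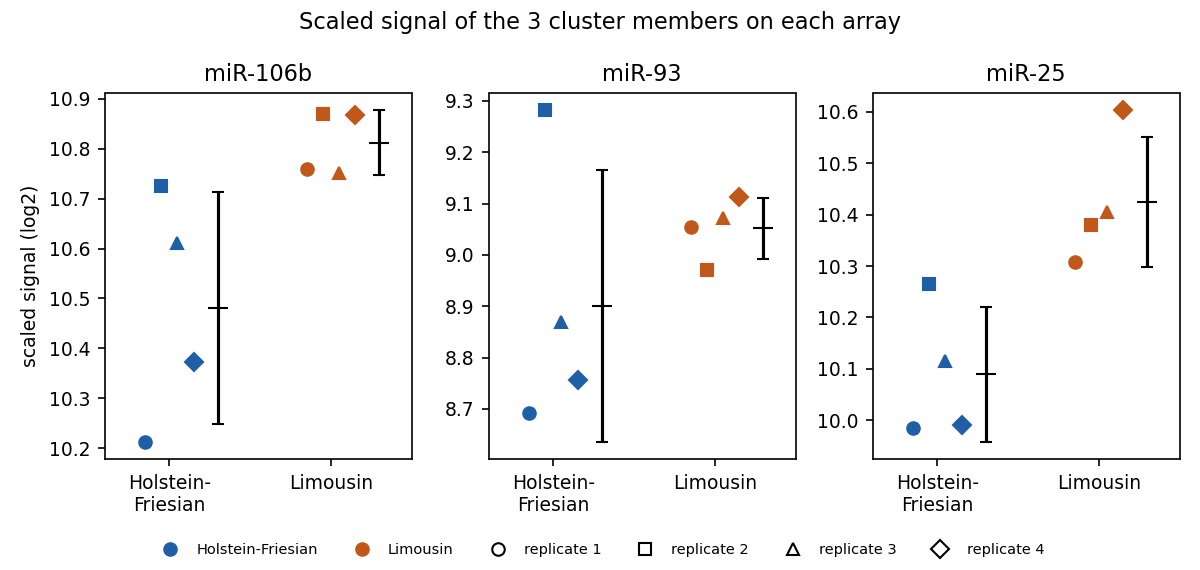
Scaled log2 signal (vertical axis) of miR-106b, miR-93 and miR-25 on each array of the 2 breeds, with the symbol showing the replicate and the bar the mean and SD of 4 arrays. The Limousin arrays lie above the Holstein-Friesian arrays for miR-106b and miR-25, and Holstein-Friesian replicate 2, at 9.28, lies above all others for miR-93.

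Before scaling the members differed between the breeds by about 2 to 1. The signal of miR-106b was 778, 982, 1529 and 854 intensity units in Holstein-Friesian replicates 1 to 4 and 2122, 3074, 1692 and 2419 in Limousin replicates 1 to 4, a ratio of the means of 2.25. For miR-25 the values were 665, 713, 1084 and 655 against 1551, 2189, 1330 and 2015, a ratio of 2.27. For miR-93 they were 271, 361, 457 and 279 against 651, 824, 528 and 717, a ratio of 1.99. No member overlapped between the breeds on this scale, the lowest Limousin value exceeding the highest Holstein-Friesian value each time, as it did for 39.3% of all tested miRNAs. These signals followed the brightness of the arrays: Holstein-Friesian replicate 3 and Limousin replicate 3, whose 75th percentiles were 939 and 943, had 1529 and 1692 units of miR-106b, 457 and 528 of miR-93, and 1084 and 1330 of miR-25.

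The brightness gap held for most miRNAs. Without scaling the median log2 difference of all 270 tested miRNAs was 0.79, and 64.8% passed, 173 higher and 2 lower in Limousin. The log2 differences of the members were then 1.19 for miR-106b, 1.01 for miR-93 and 1.19 for miR-25, all past the threshold (limma adjusted p = 4.0e-04, 0.0021 and 3.5e-04). Leaving out Holstein-Friesian replicate 2 gave 1.18, 1.04 and 1.16, again all past the threshold, as were 56.7% of all tested miRNAs. Relative to these medians, 0.79 without scaling and -0.07 with it, the members lay 0.40, 0.22 and 0.40 above the typical miRNA in either case, since scaling moves all miRNAs of an array by the same amount. The labelling spike-in was taken as the mean log2 signal of 2 control RNAs added to each sample. Its values of 11.09 to 11.27 in Holstein-Friesian and 10.99 to 11.39 in Limousin overlapped. Scaled to this spike-in, the differences were 1.11, 0.93 and 1.12. The sign of the members' differences was the same on every scale tried, while their size was set largely by the scale.

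**Figure D2:**
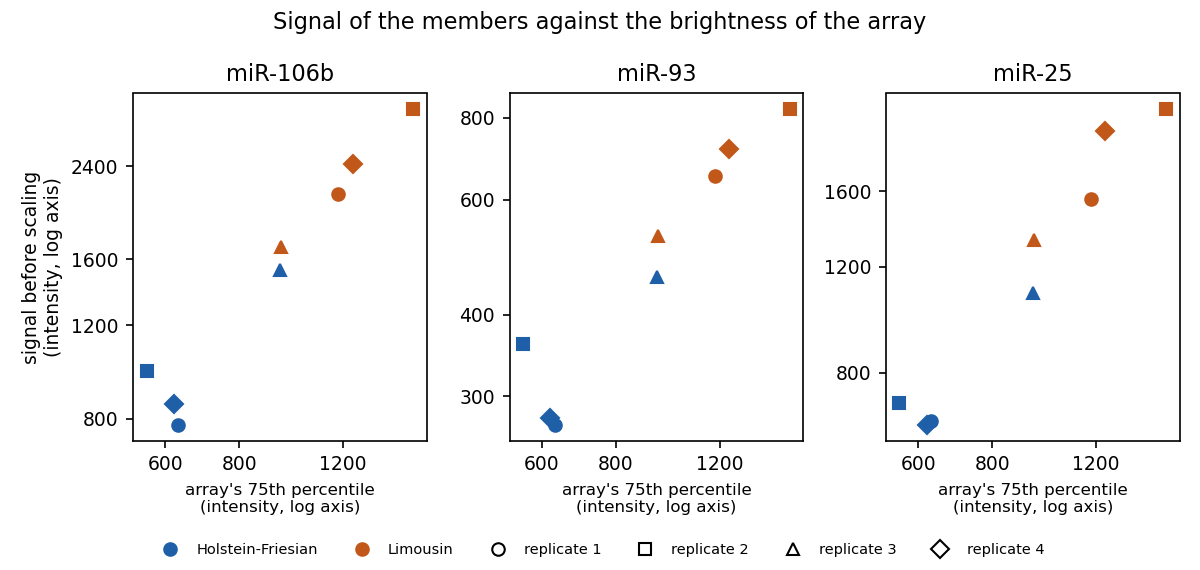
Signal of each member before scaling (vertical axis, intensity units, log axis) against the 75th percentile of the same array over the probes detected on all arrays (horizontal axis, intensity units, log axis), 1 point per array. Signals rise with the brightness of the array, and replicate 3 of both breeds, at 939 and 943, meets near the middle.

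**Figure D3:**
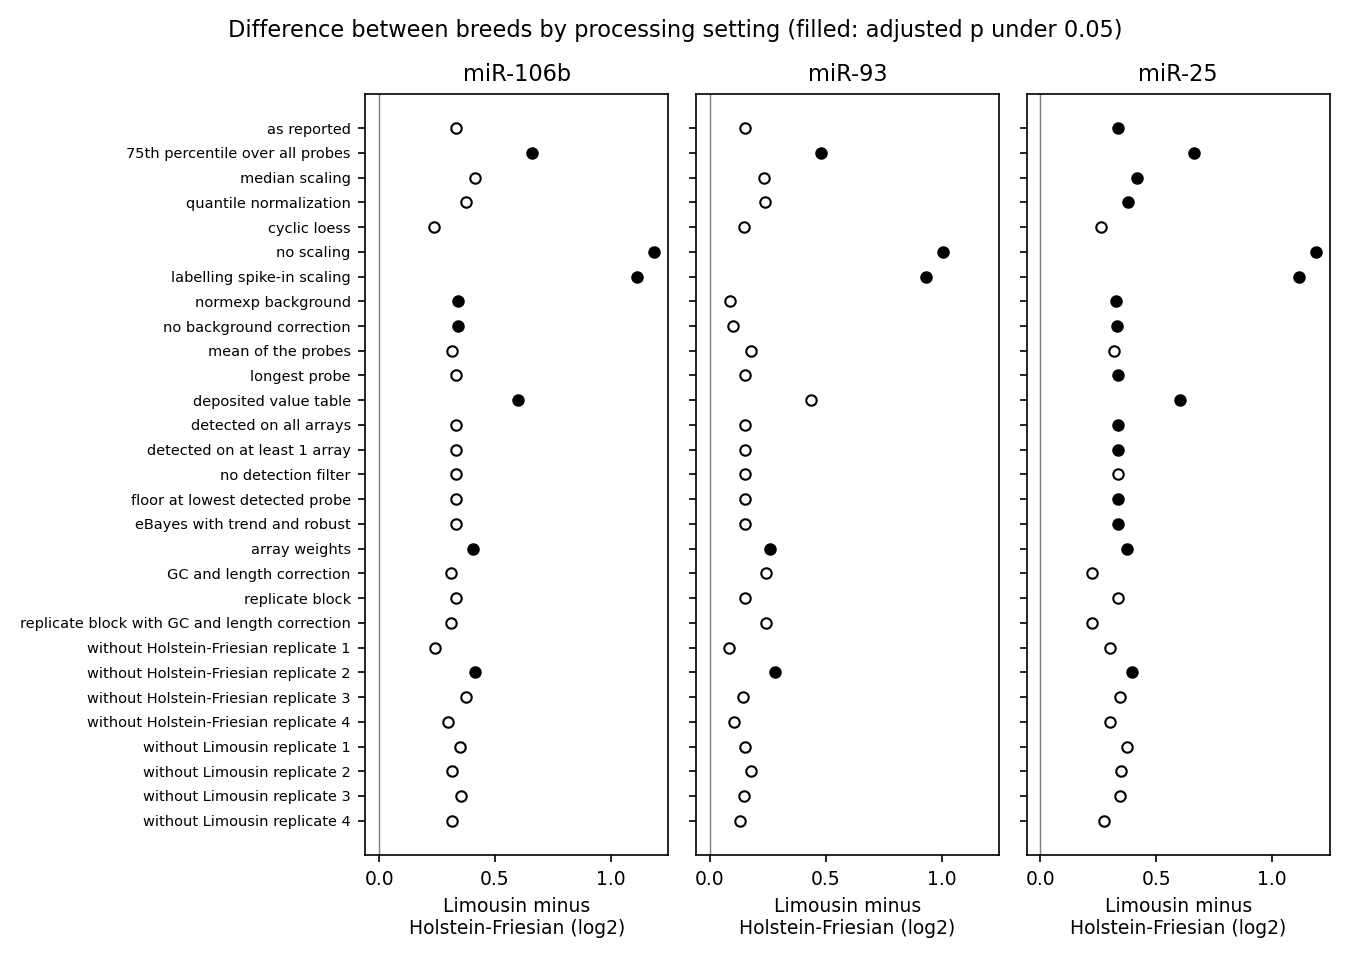
Log2 difference, Limousin minus Holstein-Friesian, of the 3 members under each processing setting and with each array left out, where filled points have a limma adjusted p under 0.05. All points lie above 0, from 0.083 for miR-93 without Holstein-Friesian replicate 1 to 1.19 for miR-106b and miR-25 without scaling.

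In the authors' deposited value table, whose scaling no source used here states, the differences were larger. miR-106b ranged from 3.89 to 4.56 log2 units in Holstein-Friesian and from 4.77 to 4.90 in Limousin. Fitted to those values, its difference was 0.60 (SE 0.15, limma adjusted p = 0.0149). miR-25 ranged from 3.67 to 4.11 and from 4.35 to 4.60, with a difference of 0.60 (SE 0.12, limma adjusted p = 0.0073). miR-93 ranged from 1.95 to 2.66 and from 2.58 to 2.69, and its difference of 0.44 (SE 0.15) did not pass (limma adjusted p = 0.0546). That table gave 81 miRNAs higher and 28 lower in Limousin, 40.4% of the 270, with a median difference of 0.25, against -0.07 here. Without Holstein-Friesian replicate 2 the differences in that table were 0.71, 0.69 and 0.58 for miR-106b, miR-25 and miR-93, all past the threshold, as were 64.4% of all tested miRNAs.

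The pair of probes of each member moved alike. Each probe had 30 spots on an array, of which at least 26 were used, and the coefficient of variation between the spots of a probe was 2.17% to 13.0%. For miR-25 the longer probe had a log2 difference of 0.33 and the shorter 0.30 (SE 0.12), with limma adjusted p of 0.0424 and 0.0661 over 495 probes, of which 40.2% passed. The shorter probe of miR-25 overlapped between breeds while the longer did not, and 15.4% of the 495 probes lay without overlap and higher in Limousin. For miR-106b the longer probe gave 0.33 (limma adjusted p = 0.0675) and the shorter 0.30 (limma adjusted p = 0.0986). For miR-93 the longer probe gave 0.15 (limma adjusted p = 0.4276) and the shorter 0.21 (SE 0.14, limma adjusted p = 0.2652). When Holstein-Friesian replicate 2 was left out all 6 probes passed, with differences of 0.28 to 0.41, and so did 52.3% of the 495. The probes of a member share all but 1 base and are not independent measurements.

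The ratio of a pair of members on the same array does not depend on the scaling of that array. Its size mixes amount with the affinity of the probes, so only its difference between breeds is given, in log2 units. The ratio of miR-106b to miR-25 was 0.23, 0.46, 0.50 and 0.38 in Holstein-Friesian replicates 1 to 4 and 0.45, 0.49, 0.35 and 0.26 in Limousin replicates 1 to 4, with means of 0.39 ± 0.12 and 0.39 ± 0.10 (SD, n = 4). The breeds overlapped throughout, and the difference was -0.0032 (two-sided exact permutation p = 0.9143), within a total range of 0.27 over the 8 arrays. It was 0.02 without Holstein-Friesian replicate 2.

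Both ratios to miR-93 were higher in Limousin on average, without passing a test. The ratio of miR-106b to miR-93 was 1.52, 1.44, 1.74 and 1.62 in Holstein-Friesian and 1.71, 1.90, 1.68 and 1.75 in Limousin, a difference of 0.18 (two-sided exact permutation p = 0.0857). The ratio of miR-25 to miR-93 was 1.29, 0.98, 1.25 and 1.23 in Holstein-Friesian and 1.25, 1.41, 1.33 and 1.49 in Limousin, a difference of 0.18 as well (two-sided exact permutation p = 0.0571). Adjusted over the 3 ratios, the exact permutation p was 0.1286 for both, and the smallest unadjusted p that 4 arrays against 4 allow is 0.0286. Holstein-Friesian replicate 2 had the lowest ratio to miR-93 in each case. Without it the difference was 0.13 for miR-106b to miR-93 and 0.11 for miR-25 to miR-93. Corrected for probe GC content and length, the differences were 0.066 and -0.02 (two-sided exact permutation p = 0.4571 and 0.7429). The 3 ratios share their members and are not independent of each other.

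**Figure D4:**
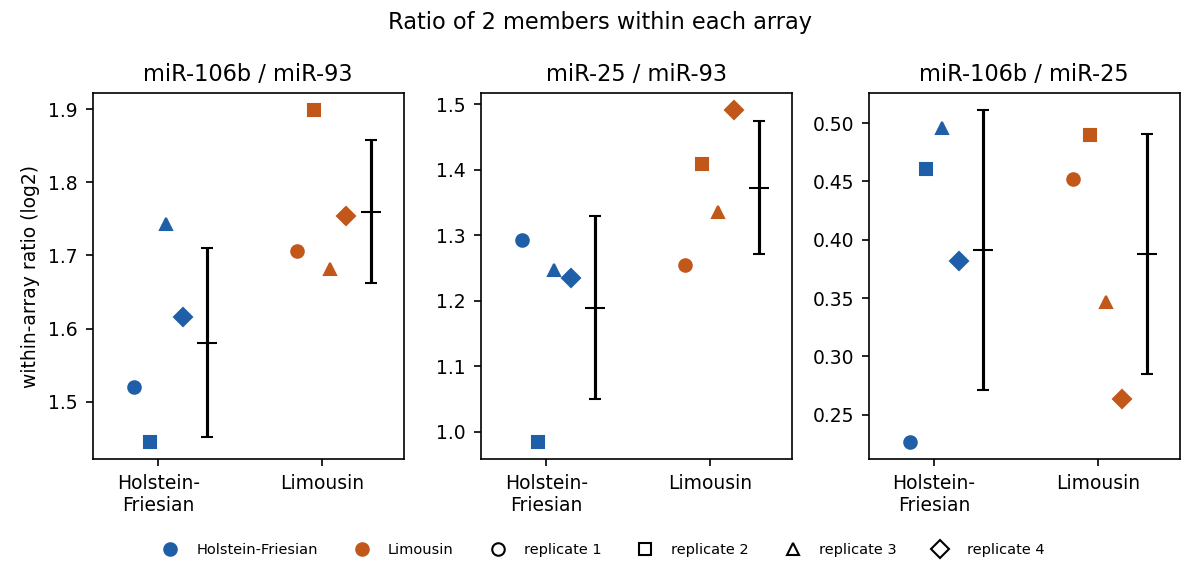
Log2 ratio of each pair of members within each array (vertical axis), by breed, with the symbol showing the replicate and the bar the mean and SD of 4 arrays. The breeds overlap in all 3 panels, and Holstein-Friesian replicate 2 has the lowest ratio of miR-106b and of miR-25 to miR-93, at 1.44 and 0.98.

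Arrays of a breed that were high for 1 member tended to be high for the others. After the breed means were removed, Pearson's r over the 8 arrays was 0.81 between miR-106b and miR-93 (exact permutation p = 0.0186, adjusted over 3 pairs 0.0279), 0.78 between miR-25 and miR-93 (exact permutation p = 0.0080, adjusted 0.0241) and 0.76 between miR-106b and miR-25 (exact permutation p = 0.0296, adjusted 0.0296). Spearman's rho was 0.62, 0.69 and 0.64 and did not pass (exact permutation p = 0.1150, 0.0694 and 0.0962, each 0.1150 after adjustment). These permutations exchanged arrays across the breeds, although removed breed means and unequal spread make the arrays not fully interchangeable. All p-values of r and rho here are therefore approximate and may be too small. All values of an array share its labelling and scaling, and the median r over 36315 pairs of tested miRNAs was 0.067, with quartiles of -0.40 and 0.50. Of all those pairs, 6.6%, 8.1% and 9.4% had an r at least as high as the respective pair of members. Without the 2 arrays farthest from the median of the first member, r fell to 0.29, 0.47 and 0.59. Leaving out the farthest arrays narrows the range and can lower r by itself, so the fall does not show what the relation rested on. Holstein-Friesian replicate 2 was among the arrays left out each time. Without that array alone r was 0.67, 0.67 and 0.57, and none passed (exact permutation p = 0.0984, 0.1034 and 0.1913).

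The miRNAs whose pattern over the arrays was most like that of miR-106b and miR-93 belonged to the related clusters. With breed means removed, miR-106b was most like miR-19a and miR-20a of the miR-17 cluster (r = 0.95 for each over 8 arrays, and 0.91 and 0.93 without Holstein-Friesian replicate 2). miR-93 was most like miR-17-5p (r = 0.99, and 0.94 without that array) and miR-20b (r = 0.98, and 0.89). The probe of miR-93 shares a run of 9 bases with each of these, and that of miR-106b one of 7 with miR-20a and of 4 with miR-19a. Aligned without gaps, the probes of miR-106b and miR-20a match at 14 of 17 bases. The part of shared binding was not tested. miR-25 was most like miR-196a and miR-409a (r = 0.91 and 0.90, and 0.88 and 0.84 without that array), which share 4 bases with it and belong to neither related cluster. These miRNAs were ranked by r among all tested ones outside the cluster, so their r is a description.

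The likeness to miR-93 was one of arrays within breeds. Whether the differences between breeds were alike was not tested. miR-17-5p had scaled log2 signals of 9.39, 10.27, 9.70 and 9.57 in Holstein-Friesian replicates 1 to 4 and 9.61, 9.52, 9.57 and 9.72 in Limousin replicates 1 to 4. miR-20b had 7.12, 8.17, 7.40 and 7.10 in Holstein-Friesian and 6.90, 6.82, 7.10 and 7.17 in Limousin. Holstein-Friesian replicate 2 was the highest of the 8 arrays for both, as it was for miR-93. Their log2 differences were -0.13 and -0.45 (limma adjusted p = 0.6060 and 0.1310), where miR-93 had 0.15. Neither sign was stable, since miR-17-5p was at 0.73 and miR-20b at 0.40 without scaling, and miR-17-5p was at 0.05 without Holstein-Friesian replicate 2. Of the others, miR-409a, from the imprinted DLK1-DIO3 region, was higher in Limousin by 0.34 (limma adjusted p = 0.0358) but at -0.32 without background correction. miR-196a, from the HOX gene clusters, was at 0.44 (limma adjusted p = 0.0761) and at -0.05 without background correction.

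Outside the cluster, no tested carrier of the same seeds was called higher in Limousin. All 4 relatives with the miR-17 seed, miR-17-5p, miR-20a, miR-20b and miR-106a, were tested and none passed, with a median difference of -0.02 and a range of -0.45 to 0.19. Of the 5 relatives with the seed of miR-25, miR-92b and miR-367 were detected on no array, miR-32 and miR-92a did not pass, at 0.11 and -0.19, and miR-363 fell. Of the 11 miRNAs of the related clusters on the array, 10 were tested, and miR-363 alone passed, where 41.9% of all tested miRNAs did. Their median was 0.08, against 0.33 for the 3 members and -0.07 for all 270. Without Holstein-Friesian replicate 2, 1 of the 4 relatives with the miR-17 seed passed, miR-20a at 0.32 (limma adjusted p = 0.0462), and 3 of the 10 miRNAs of the related clusters passed, miR-20a and miR-18a higher and miR-363 lower, where 52.6% of all tested miRNAs passed. With no scaling, 3 of the 4 and 2 of the 3 tested seed relatives passed, all higher in Limousin, and 64.8% of all tested miRNAs. Corrected for probe length and GC content, 2 of the 10 passed, miR-363 and miR-19a, both lower, and 28.9% of all tested miRNAs.

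miR-363, of the miR-106a-363 cluster, moved opposite to miR-25. Its scaled log2 signals were 6.05, 6.36, 5.62 and 5.59 in Holstein-Friesian replicates 1 to 4 and 4.64, 4.65, 5.16 and 4.87 in Limousin replicates 1 to 4, without overlap. The log2 difference was -1.07 (SE 0.19, 95% confidence interval -1.50 to -0.64, limma adjusted p = 0.0035). It passed without any 1 array, between -1.18 and -0.92, and after correcting for the GC content and length of probes (-0.86, limma adjusted p = 0.0095). Without scaling it was -0.22 and did not pass (limma adjusted p = 0.5300). In both cases miR-363 lay about 1.00 below the median of all miRNAs.

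**Figure D5:**
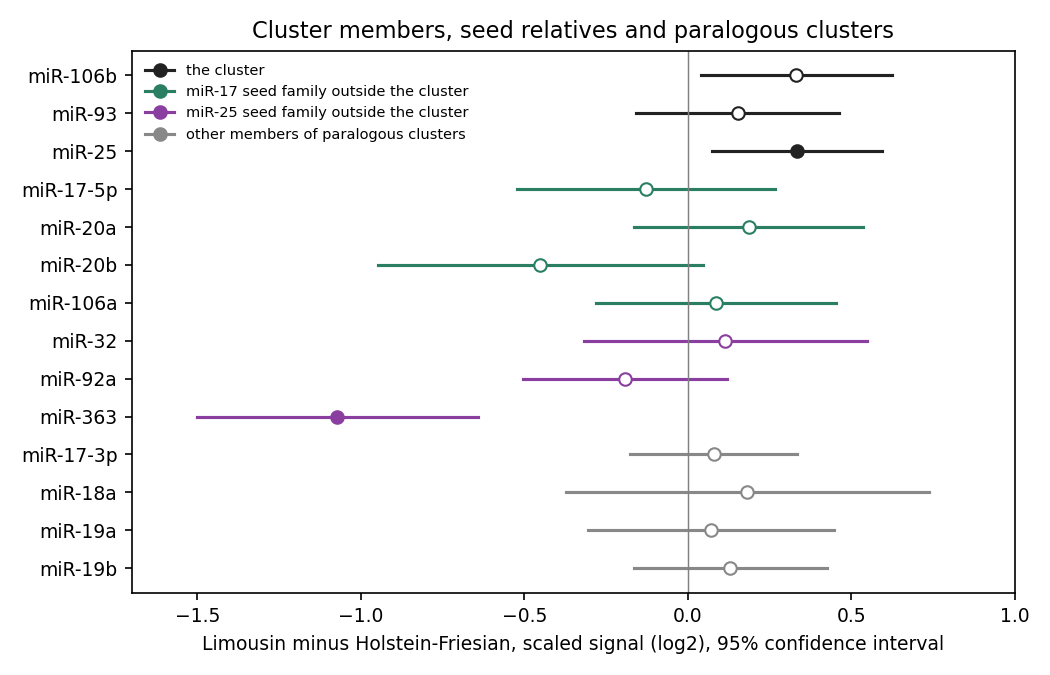
Log2 difference in scaled signal (horizontal axis), Limousin minus Holstein-Friesian, with its 95% confidence interval, of the 3 members, their seed relatives and the other tested miRNAs of the related clusters. Filled points have a limma adjusted p under 0.05: miR-25 lies above 0 at 0.33 and miR-363 below it at -1.07.

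Some other miRNAs known for acting on cell cycle entry or on TGF-beta signalling were called in the direction of miR-25. Most of these calls were lost after correction for the GC content and length of probes. Of 16 on the array 12 were tested, of which 5 rose, 0 fell and 7 did not pass, and the median difference was 0.29. miR-15a and miR-16b, of a family known in human cells for repressing cyclins, were higher by 0.46 and 0.42 (limma adjusted p = 0.0174 and 0.0330). miR-424-5p, of the same family, rose by 0.55 (limma adjusted p = 0.0146). miR-21-5p, which TGF-beta signalling induces in human smooth muscle cells, rose by 0.81 (limma adjusted p = 0.0102), and miR-24-3p by 0.45 (limma adjusted p = 0.0110). The miR-34 and miR-449 members miR-34b, miR-34c and miR-449a, which repress cell cycle genes in mammals, were detected on no array, and nor was miR-503-5p. miR-34a was tested and did not pass, at 0.26 (limma adjusted p = 0.3865). miR-145 had a difference of -0.23 and did not pass (limma adjusted p = 0.0920). The share that rose is to be read against the 13.7% of all tested miRNAs that were higher in Limousin. Corrected for GC content and length, the split of 5 higher and 0 lower became 1 higher and 3 lower, where 28.9% of all tested miRNAs passed. miR-24-3p stayed higher, at 0.31 (limma adjusted p = 0.0241). The calls of miR-15a, miR-16b, miR-424-5p and miR-21-5p were lost, at 0.20, 0.26, 0.26 and 0.41 (limma adjusted p = 0.1647, 0.0920, 0.0651 and 0.0971). miR-15b, miR-145 and miR-224, which had not passed, were then lower, at -0.45, -0.37 and -0.43 (limma adjusted p = 0.0475, 0.0171 and 0.0442). With 1 array left out 3 to 6 passed, all higher, and 3 passed without Holstein-Friesian replicate 4, Limousin replicate 1 or Limousin replicate 4. This list was chosen with earlier results of these data known, and its direction is no independent evidence.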

How the data were processed

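Small RNA of 8 mammary samples was read on one-colour Agilent arrays. Per the labels' protocols, a miRNeasy kit gave total RNA from tissue stored in RNAlater, of which 100 ng was labelled with Cyanine 3-pCp. Per the file headers, Agilent Feature Extraction 10.10.1.1 wrote the deposited spot intensity values, which had been background-subtracted and not scaled between arrays. The authors' deposited value table holds log2 values. An array's column matches Agilent's total gene signal in log2, less 1 constant, to within 9.7e-06, and its column medians ran from -9.79 to -8.53. The sources used here do not state its scaling.

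Outlier and control spots were left out and the spots of a probe averaged. A probe was detected on an array where over 50% of its spots were well above background. Intensities were divided by the 75th percentile of the array, taken over probes that every array detected, multiplied by the mean of these percentiles, set to at least 1 and put on a log2 scale. The probe with the highest mean stood for a miRNA. A fit by breed alone, in limma 3.58.1 under R 4.3.3, took in the 270 miRNAs that at least 1 breed showed on all 4 of its arrays. Of the 763 miRNAs, 463 were detected on no array. Ratios and correlations were tested by exact permutation with scipy 1.17.1. The fit was tested on simulated data with independent noise for each miRNA and array. That simulation held no difference in brightness and no scaling, so it does not bear on either.

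The members and lists were chosen with earlier results of these data known. The miRNAs named in the text are the members, the called miRNAs of the lists, and for each member the 2 tested miRNAs with the highest r. Other list members and markers were named after their values were seen. Seed families were taken from textbook names, where a comparison of mature sequences had been planned, because mature sequences were not used here. Probe positions are those of the array annotation in UMD 3.1. Alternatives covered scaling, background, probe summary, detection filter, floor, the deposited table, variance model, array weights, GC content and length, the replicate number as a block, and each array left out.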

Additional observations from a re-analysis of the deposited data

How the results depend on the processing

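None of the 3 members changed sign under any of the 20 alternatives, nor without any 1 array, but their calls moved. The log2 difference of miR-106b passed the threshold with the 75th percentile over all probes (0.66), no scaling (1.19), spike-in scaling (1.11), normexp (0.34), no background correction (0.34), the deposited table (0.60) and array weights (0.41). miR-93 passed with the 75th percentile over all probes (0.48), no scaling (1.01), spike-in scaling (0.93) and array weights (0.26). The call of miR-25 ended with cyclic loess (0.26), the mean of the probes (0.32), no detection filter (0.33), the GC and length correction (0.22), the replicate block (0.33) and both of the latter (0.22), with limma adjusted p of 0.0825, 0.0534, 0.0592, 0.1153, 0.1297 and 0.2016. Thus 3 members passed with the 75th percentile over all probes, no scaling, spike-in scaling and array weights, where 49.6%, 64.8%, 65.6% and 56.3% of all tested miRNAs passed. The number was 2 with normexp, no background correction and the deposited table (63.7%, 63% and 40.4% of all), and 0 under the 6 settings that ended the call of miR-25 (11.9% to 40.4% of all). With 1 array left out, the differences ran from 0.24 to 0.41 for miR-106b, 0.083 to 0.28 for miR-93 and 0.28 to 0.39 for miR-25, and 0 to 3 members passed. The cause of these changes was not tested.

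Of all tested miRNAs 113 passed, and 71 (without Limousin replicate 1) to about 1.4e+02 (without Holstein-Friesian replicate 2, 52.6%) with 1 array left out (24 to 56 higher in Limousin, against 37). The count was 175 without scaling, 177 with spike-in scaling, 172 with normexp, 170 without background correction and 61 with the replicate block and the GC and length correction. The split of higher and lower calls, 37 and 76 as reported, was 104 and 30 with the 75th percentile over all probes, 81 and 28 with the deposited table, 55 and 43 with quantile normalization, 45 and 59 with cyclic loess, 173 and 2 without scaling, 173 and 4 with the spike-in, 26 and 146 with normexp, 27 and 143 without background correction and 20 and 41 with the block and the GC and length correction. Median differences of all tested miRNAs ran from -0.38 with normexp to 0.79 without scaling.

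The ratio differences ran from 0.13 to 0.23 for miR-106b to miR-93, 0.11 to 0.22 for miR-25 to miR-93 and -0.058 to 0.038 for miR-106b to miR-25 with 1 array left out. With the GC and length correction that of miR-106b to miR-93 went from 0.18 to 0.066, that of miR-25 to miR-93 turned to -0.022 and that of miR-106b to miR-25 to 0.088, and the latter was also 0.011 with normexp and 0.0080 without background correction. The correlations ran from 0.67 to 0.90 (miR-106b and miR-93), 0.67 to 0.91 (miR-25 and miR-93) and 0.57 to 0.88 (miR-106b and miR-25). Outside the cluster, miR-17-5p changed sign with the 75th percentile over all probes (0.20), no scaling (0.73), the spike-in (0.65), the deposited table (0.14), array weights (0.0095) and without Holstein-Friesian replicate 2 (0.054). miR-20b did so with no scaling (0.40) and the spike-in (0.33), miR-20a with the GC and length correction with or without the block (-0.059), and miR-19a with these (-0.43) and without Holstein-Friesian replicate 1 (-0.071). With 1 array left out miR-17-5p ran from -0.24 to 0.054 and miR-19a from -0.071 to 0.21. miR-196a turned with normexp (-0.11), no background correction (-0.055) and the GC and length correction with or without the block (-0.14), and miR-409a with normexp (-0.36) and no background correction (-0.32).

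Both breeds carry the replicate numbers 1 to 4. The deviations of same-numbered arrays had an r of -0.31, -0.25, -0.45 and 0.32 for numbers 1 to 4. Number 4 alone matched its own number best. These values were not tested and cannot decide whether the numbers pair the animals. The replicate block lowered the count of all miRNAs from 113 to 84. The log2 differences with the block were as reported, 0.33, 0.15 and 0.33, and none passed.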
